A study of Mus musculus with 96 samples.

Results

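To describe how mouse tissues handle ammonia over the day and after sleep deprivation, 10 genes were taken from a count table of 54833 features: Cps1, Otc, Ass1, Asl, Arg1, Nags, Gls2, Glul, Gpt2 and Slc38a3. They were chosen by name, as the 5 enzymes of the urea cycle with its activator enzyme and 4 genes that make, fix or carry glutamine and ammonia nitrogen, and all 10 were found in the table by their gene identifiers. The libraries came from wild-type C57BL/6 mice, which were male and 6 to 8 weeks old. Control mice (CON) were compared with sleep-deprived mice (SD), which had been kept walking in a slowly rotating drum for 10 h of their resting phase with food and water at hand, so that lost sleep and forced walking cannot be told apart. Both groups were sampled at circadian times (CT) 4, 8, 12, 16, 20 and 24 h, with 2 libraries per time, so that each tissue had 12 CON and 12 SD libraries and the series 96. Collection was in constant darkness, at the 6 times that followed the deprivation. In SD each time is thus also another interval since deprivation. Time of day and time since deprivation cannot be told apart. The tissues were liver, kidney, forebrain and cerebellum. The sources do not tie the 2 libraries of a time to named animals, so p-values measure the spread between these libraries.

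The urea cycle turns ammonia, which is toxic to the brain, into urea that the kidney can excrete. In mitochondria CPS1, switched on by the N-acetylglutamate that NAGS makes, joins ammonia and bicarbonate to carbamoyl phosphate, which OTC passes on to ornithine. In the cytosol ASS1 and ASL then build arginine, and ARG1 splits it into urea and ornithine. The periportal hepatocytes that run this cycle also hold the liver glutaminase GLS2, which frees ammonia from glutamine, whereas the last hepatocytes before the central vein hold glutamine synthetase, the product of Glul, which fixes the ammonia that escaped. GPT2 moves amino groups between alanine and glutamate in mitochondria, and SLC38A3 carries glutamine across the plasma membrane. Kidney uses ASS1 and ASL to make arginine for the rest of the body, and astrocytes use glutamine synthetase to clear ammonia and glutamate in the brain.

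Windows upstream of the start site were at hand for 5 of the 10 genes (Otc, Ass1, Nags, Glul and Gpt2; RefSeq, GRCm38.p6), and 5 short motifs were searched on both strands over the 250 bases before and 50 bases after the start. The 2 windows printed here, 250 bases upstream of the start on the plus strand, are those of Ass1 and Glul, the genes among these 5 whose response to SD was called both in liver and in the comparison between liver and kidney. Capitals mark the motif matches. In Ass1 (chr2:31470020-31470269) they mark the E-box CACGTG, to which CLOCK and BMAL1 bind, 36 bases before the RefSeq start. The GENCODE model of Ass1 begins within this window, at 31470207, so that the E-box lies inside that model and not upstream of it. In Glul (chr1:153899679-153899928) capitals mark AGGTCA, the core that the REV-ERB and ROR receptors bind, 57 bases before the start. They also mark ACANNNTGT, a glucocorticoid receptor site, 25 bases before the start.
Ass1: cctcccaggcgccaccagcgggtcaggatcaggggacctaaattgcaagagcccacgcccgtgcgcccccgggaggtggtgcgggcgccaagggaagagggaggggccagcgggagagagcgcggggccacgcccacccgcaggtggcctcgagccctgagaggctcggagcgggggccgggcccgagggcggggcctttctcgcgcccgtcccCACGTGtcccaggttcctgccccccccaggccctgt
Glul: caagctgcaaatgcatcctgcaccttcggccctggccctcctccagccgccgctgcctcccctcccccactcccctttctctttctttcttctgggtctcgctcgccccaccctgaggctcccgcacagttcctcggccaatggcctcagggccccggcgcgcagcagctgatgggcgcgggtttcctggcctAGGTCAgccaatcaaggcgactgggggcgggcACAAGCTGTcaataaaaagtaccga

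Such matches were common. Of 32851 mouse windows of the same length, 7.15% held CACGTG, 16.3% AGGTCA and 6.85% ACANNNTGT. The Nags window held AGGTCA 178 bases before the start and TGACG, the core of a cAMP response element, found in 20.8% of windows, 31 bases after it. The Otc and Gpt2 windows held none of the 5 motifs, and none of the 5 windows held the D-box TTANGTAA, present in 2.32% of windows.

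Libraries held 24.8 to 58.5 M counts, with 32.0 to 48.9 M in liver and 32.2 to 58.5 M in kidney. Values are given as CPM, each count divided by its library's total and scaled to 1000000, and levels of different genes are compared only as RPKM, which is CPM per kilobase of exon. The 4 hepatocyte markers (Alb, Apoa1, Ahsg and Ttr) summed to between 69667 and 94351 CPM in liver, the 3 markers of the first segments of the proximal tubule (Slc5a2, Slc34a1 and Lrp2) to between 11464 and 14383 CPM in kidney, and the 3 neuron markers to between 2081 and 3783 CPM in the brain tissues. The titles and the characteristics of 20 of the 24 kidney libraries name different groups, and the titles, which the table's column names repeat, were used here. Read by title, kidney Arntl, which encodes the clock protein BMAL1, was at 4.00 and 3.32 CPM in the CON libraries of CT16 and at 49.2 CPM in both of CT4, against 4.65 and 5.09 CPM at CT16 and 46.7 and 35.9 CPM at CT4 in liver. Where the characteristics and the title name the same group, the characteristics still give a time 4 h earlier. All times here are those of the titles. The Arntl values only set the kidney titles beside the liver titles, and they say nothing of CON or SD or of which hour is right.

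A library of kidney stood apart. In kidney CON CT20 replicate 1, Cps1 reached 6.12 CPM against at most 0.855 CPM in the other 23 kidney libraries, Otc 0.566 against at most 0.0806 CPM, and Arg1 1.46 against at most 0.265 CPM. Albumin (Alb) stood at 91.4 CPM there, against 1.69 to 12.6 CPM in the others. As a share of the liver CON mean, these values were 0.105% for Cps1, 0.164% for Otc, 0.164% for Arg1 and 0.143% for Alb. Kidney results that rest on this library are given with and without it.

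Levels of the 10 genes separated the tissues before any treatment. Cps1 was the highest of them in CON liver with 1050 ± 157 RPKM (SD, n = 12, as for all levels below), followed by Ass1 with 586 ± 122 RPKM, Arg1 with 399 ± 60.2 RPKM and Glul with 340 ± 33.6 RPKM. Arg1 and Glul did not differ beyond their spread. Slc38a3 stood at 177 RPKM, Gpt2 at 83.1, Otc at 81.3, Asl at 70.9 and Gls2 at 64.1 RPKM, and the last 4 of these overlapped. Nags, whose product only activates the cycle, was lowest at 27.2 ± 5.06 RPKM. The 5 cycle enzymes together held 0.883% ± 0.129 of all liver counts in CON, 0.208% of kidney counts, 0.0018% of forebrain counts and 0.0010% of cerebellum counts.

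**Figure D1:**
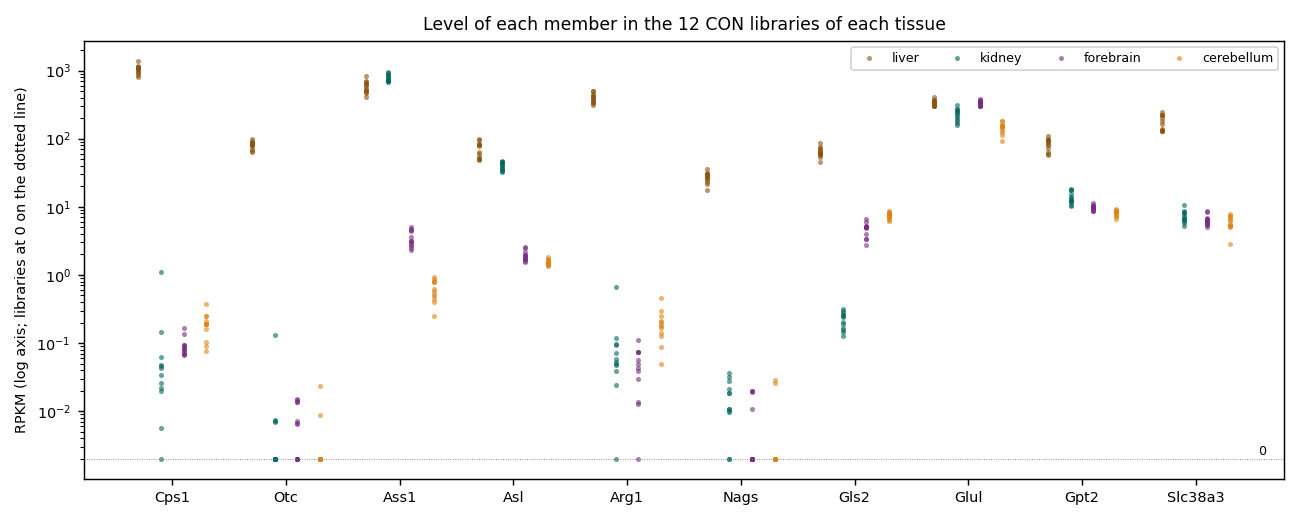
Level of each gene in the CON libraries of the 4 tissues, as RPKM on a log axis, with 1 point per library. Ass1 is of similar height in liver and kidney, and Glul lies lower in kidney than in liver and stays high in both brain tissues. Cps1, Otc, Arg1 and Nags lie near 0 outside liver, with libraries at 0 on the dotted line.

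Kidney kept the arginine-making genes of the cycle, Ass1 and Asl, and held few reads of the other cycle genes among the 10. Ass1 stood at 783 ± 89.4 RPKM in CON kidney and Asl at 40.1 ± 5.42 RPKM, while Cps1, Otc, Arg1 and Nags had median kidney counts of 8, 0, 5 and 1 reads per library. Arg2, another arginase gene that was tested in kidney, is not among the 10. Low Arg1 alone therefore does not show that kidney lacks the arginase step. The liver glutaminase Gls2 was at 0.219 RPKM in kidney. Of the 10 genes, 9 were called higher in liver than in kidney (edgeR, adjusted p under 0.05 and a log2 difference over 1), beside 17.9% of 22057 genes tested that were higher in liver and 42.1% called in either direction. Scaling by library size alone, without the trimmed mean of M values (TMM) factors of the test, moved the median of all genes from -0.04 to -0.57 on the log2 scale, so the smaller differences between the organs depended on it.

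Ass1 was the exception. Its CON level was 1415 ± 296 CPM in liver and 1890 ± 216 CPM in kidney, and the log2 difference of liver against kidney was 0.09 ± 0.11 (SE, adjusted p = 0.4585) with TMM factors but -0.43 (adjusted p = 1.6e-04) with library sizes alone. Asl was higher in liver by 1.31 ± 0.12 on the log2 scale (adjusted p = 7.5e-10), or 0.79 with library sizes alone, and Glul by 1.12 ± 0.10 (adjusted p = 2.0e-10), or 0.60. Mean CPM was 6-fold higher in liver for Gpt2, 24.2-fold for the glutamine carrier Slc38a3 and 292-fold for Gls2. For the near-absent genes a fold against the kidney mean rests on few reads. The liver mean was 953 times the highest CON kidney library for Cps1, 609 times for Otc, 610 times for Arg1 and 749 times for Nags, and for all 4 genes that library was CON CT20 replicate 1. Against the highest of the other 11 CON kidney libraries it was 7242 times for Cps1, 3353 times for Arg1 and 843 times for Nags, and Otc had at most 1 read in each of them.

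After SD, 7 of the 10 genes were modestly higher in liver. The mitochondrial entry enzymes Cps1 and Otc, the arginine-building enzymes Ass1 and Asl, the aminotransferase Gpt2, glutamine synthetase Glul and the glutamine carrier Slc38a3 rose in liver averaged over the 6 times. Arg1, Nags and Gls2 did not pass the test. Those that rose did so by 1.13-fold to 1.29-fold, and stand beside 9.42% of 19708 genes tested that were higher in SD and 18.2% that were called in either direction. The median log2 fold change over the 10 genes was 0.27, against 0.01 over all genes tested.

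Cps1, which commits ammonia to the cycle, ranged from 4506 to 7755 CPM in CON with a median of 5890, and from 4995 to 9928 CPM in SD with a median of 6167. Otc ranged from 271 to 417 CPM (median 352) in CON and from 347 to 426 CPM (median 383) in SD. The ranges of both genes overlapped between the groups, although the lowest SD library of Otc lay close to the CON median. The fold change on the log2 scale was 0.33 ± 0.09 for Cps1 (SE, adjusted p = 0.0117) and 0.30 ± 0.07 for Otc (adjusted p = 0.0027), and mean CPM was higher in SD at 5 of 6 times for each.

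The pair of cytosolic enzymes that joins aspartate to the cycle and releases arginine had the largest fold changes of the 10 genes, with TMM factors and with library sizes alone. Ass1 ranged from 985 to 2029 CPM (median 1398) in CON and from 1125 to 2364 CPM (median 1693) in SD, and Asl from 238 to 481 CPM (median 346) in CON and from 215 to 731 CPM (median 399) in SD. Most SD libraries of both genes lay within the CON range, which spans all 6 times. With time in the model, Ass1 rose by 0.37 ± 0.09 on the log2 scale (adjusted p = 0.0068) and Asl by 0.36 ± 0.08 (adjusted p = 0.0019).

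Glul, at the perivenous end of the lobule, ranged from 987 to 1349 CPM (median 1141) in CON and from 989 to 1424 CPM (median 1217) in SD. Its log2 fold change was 0.24 ± 0.06 (adjusted p = 0.0128). Gpt2 ranged from 324 to 622 CPM (median 489) in CON and from 295 to 706 CPM (median 564) in SD, with a log2 fold change of 0.30 ± 0.07 (adjusted p = 0.0025). The SD ranges of Glul and Gpt2 contained or nearly contained their CON ranges, so neither separated the groups library by library. Slc38a3 ranged from 681 to 1311 CPM in CON and from 668 to 1202 CPM in SD and had a log2 fold change of 0.17 ± 0.06 (adjusted p = 0.0468). It stayed called in only 5 of the 24 fits that each left out 1 library, whereas the other 6 stayed called in 24 of 24.

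The last enzyme of the cycle did not pass the test. Arg1 had 889 ± 134 CPM in CON and 884 ± 154 CPM in SD, with a log2 fold change of 0.12 ± 0.07 (adjusted p = 0.2501). The values were 77.1 ± 14.4 and 74.5 ± 11.0 CPM for Nags (0.10 ± 0.06, adjusted p = 0.3140) and 223 ± 36.6 and 233 ± 38.5 CPM for Gls2 (0.20 ± 0.08, adjusted p = 0.0691). Whether these 3 genes differed from the 7 that passed was not tested.

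**Figure D2:**
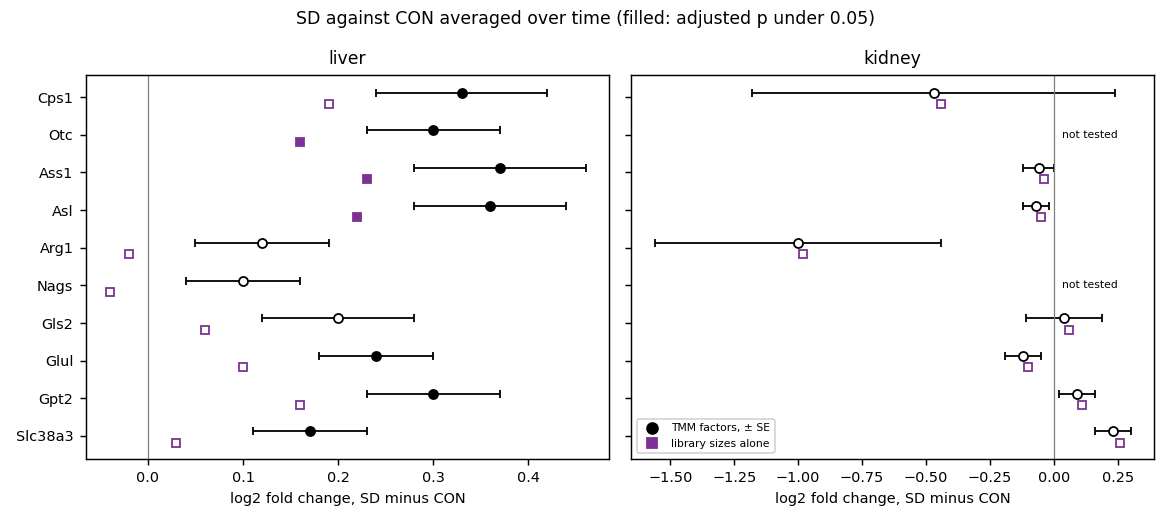
Log2 fold change of SD against CON averaged over the 6 times for each gene, in liver and kidney. Circles use TMM factors and carry the SE, squares use library sizes alone, and filled symbols passed an adjusted p of 0.05. In liver all 10 circles lie above 0, from 0.10 for Nags to 0.37 for Ass1, and in kidney those of Ass1, Asl and Glul lie just below 0.

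How many liver genes were called depended on the scaling. On the log2 scale the TMM factors averaged 0.07 ± 0.09 over CON libraries and -0.07 ± 0.10 over SD libraries, and with library sizes alone the median of all genes fell to -0.13 while that of the 10 genes was 0.13. On that scale 3 genes stayed called, Otc (0.16, adjusted p = 0.0331), Ass1 (0.23, adjusted p = 0.0468) and Asl (0.22, adjusted p = 0.0196), beside 1.82% of all genes that were higher, and Arg1 and Nags took the other sign at -0.02 and -0.04.

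Markers of several liver cell types changed in the same libraries. These calls stand beside 9.42% of all genes that were higher in SD and 8.80% that were lower. With library sizes alone the shares were 1.82% higher and 19.1% lower. Of the 4 hepatocyte markers, 3 rose: Alb by 0.24, Ahsg by 0.25 and Apoa1 by 0.28 on the log2 scale, and none of them did with library sizes alone. The 4 markers summed to a median of 76907 CPM in CON (69667 to 94351) and 86341 CPM in SD (71299 to 89464). All 3 tested macrophage markers fell, Adgre1 by 0.62, Cd5l by 0.61 and Clec4f by 0.30, and the sum of the list went from a median of 783 CPM (509 to 1014) to 523 CPM (371 to 604), with Cd68 listed at 0 throughout. Of the 3 stellate cell markers Lrat rose by 0.38 (adjusted p = 0.0168) and Dcn by 0.15 (adjusted p = 0.0217), neither of them with library sizes alone, and their summed median was 163 CPM in CON (142 to 181) and 167 CPM in SD (150 to 188). Of the 3 endothelial markers Cdh5 fell by 0.20 (adjusted p = 0.0144), and with library sizes alone it and Pecam1 fell, beside a summed median of 241 CPM in CON (219.5 to 300.1) and 216 CPM in SD (191 to 282). None of the 4 cholangiocyte markers or the 3 tested erythroid markers passed. In bulk tissue, fewer cells of a type and less RNA per cell cannot be told apart. With the mean log2 CPM of the hepatocyte markers as a covariate, an alternative chosen after seeing the data, none of the 10 genes stayed called (lowest adjusted p = 0.0858, for Gpt2 at 0.28), beside 0.660% of all genes that were higher in SD. Under it Ass1 stood at 0.11, Otc at 0.12, Cps1 at 0.18 and Asl at 0.22. The covariate was itself higher in SD (13.34 ± 0.22, n = 12) than in CON (13.12 ± 0.18, n = 12). This fit therefore cannot tell a change of cell makeup from a change of RNA per hepatocyte. What part the cell makeup of the samples played in the change of the 10 genes was not tested.

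Markers of the lobule's ends were called in unequal numbers, where 9.42% of all genes were higher in SD. Among periportal markers 1 of 5 rose, the gluconeogenic enzyme Pck1 by 0.73 on the log2 scale, and among perivenous markers 4 of 8 did, Lgr5 by 0.60, Cyp2e1 by 0.51, Oat by 0.47 and Slc1a2 by 0.26. With library sizes alone, beside 1.82% of all genes, no periportal marker was called (Pck1 at 0.59, adjusted p = 0.0701) and the perivenous calls fell to 2, Cyp2e1 and Oat, with Lgr5 at an adjusted p of 0.0726 and Slc1a2 at 0.2293. The median log2 fold change was 0.25 in both lists. The cycle enzymes, which are periportal, had 0.33 for Cps1, 0.30 for Otc, 0.37 for Ass1, 0.36 for Asl and 0.12 for Arg1. Their activator Nags had 0.10 and the periportal Gls2 0.20. The perivenous Glul had 0.24, which lay within the range of these values.

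Most of the tested partners of the cycle rose as well. Of 11 tested partners 7 rose and 1 fell, where 9.42% of all genes were higher in SD. Ornithine aminotransferase Oat rose by 0.47 ± 0.09 on the log2 scale (adjusted p = 9.9e-04), the aspartate-glutamate carrier Slc25a13, which supplies ASS1 with aspartate, by 0.38 ± 0.06 (adjusted p = 1.5e-04), and agmatinase Agmat by 0.37 ± 0.05 (adjusted p = 8.6e-05). The urea channel Slc14a1 fell by 0.58 ± 0.12 (adjusted p = 0.0016), where 8.80% of all genes were lower in SD. Of 23 tested genes that release or transfer amino nitrogen, 13 rose, led by the tyrosine-degrading Hpd at 0.49, the glycine cleavage component Amt at 0.38 and the lysine-degrading Aass at 0.34. With library sizes alone the partners kept 6 higher and 1 lower, and the nitrogen genes 5 higher, beside 1.82% of all genes that were higher.

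Amino acid, ammonium and urea transporters went both ways. Of 17 tested, 4 rose and 5 fell, beside 9.42% of all genes that were higher in SD and 8.80% that were lower. Slc38a4 rose by 0.35 on the log2 scale, Slc3a1 by 0.27 and Slc1a2 by 0.26, and the glutamate carrier Slc1a3 fell by 0.92, Slc7a8 by 0.52 and the glutamine carrier Slc1a5 by 0.47. With library sizes alone 1 rose and 7 fell, beside 1.82% of all genes that were higher and 19.1% that were lower. Of 10 tested regulators of amino acid breakdown and fasting 5 rose and none fell, among them the transcription factors Klf15 (0.34 ± 0.10, adjusted p = 0.0218) and Creb3l3 (0.31 ± 0.06, adjusted p = 0.0013) and the glucagon receptor Gcgr (0.25 ± 0.04, adjusted p = 4.1e-04). With library sizes alone 2 of them stayed called, Creb3l3 (0.18, adjusted p = 0.0218) and Gcgr (0.11, adjusted p = 0.0388), and Klf15 was not (0.20, adjusted p = 0.1438).

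Across the day the highest log2 fold change of a gene lay at CT24 for 6 of the 10 genes (Cps1, Ass1, Asl, Gls2, Gpt2 and Slc38a3) and at CT16 for the other 4, among them Otc (0.50 against 0.43 at CT24) and Nags (0.35 against -0.12). The SD libraries of these times also differ in the time since deprivation. The 3 highest of all, at CT24, belonged to Ass1, Asl and Cps1. Ass1 had 1330 and 1118 CPM in the CON libraries at CT24 and 1684 and 2364 CPM in the SD libraries, a log2 fold change of 0.87 ± 0.20 (SE, adjusted p = 0.0627). Asl had 481 and 382 against 607 and 731 CPM (0.77 ± 0.17, adjusted p = 0.0578), and Cps1 6534 and 4818 against 7048 and 9928 CPM (0.72 ± 0.21, adjusted p = 0.1169). Both SD libraries lay above both CON libraries for these 3 genes, and SD replicate 2 was the highest in each. Across the 10 genes and 6 times, 19 of 60 tests had an unadjusted p under 0.05, and none passed after adjustment over all genes. The same count over all genes is not given here, so it is not read as particular to the 10 genes.

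Tested jointly over the 6 times, Asl alone passed (adjusted p = 0.0425), beside 3.56% of all genes, with Ass1 at 0.0608 and Otc at 0.0977. Asl stayed called in 4 of 24 fits that left out 1 library. DESeq2 called 5 of the 10 genes in this test, beside 10.2% of all genes. The averaged comparison rests in part on CT24 as well. Without that time, an alternative chosen after seeing the data, Cps1 (0.24, adjusted p = 0.0301), Otc (0.27, 0.0070), Ass1 (0.27, 0.0269), Asl (0.27, 0.0072) and Gpt2 (0.26, 0.0115) stayed called and Glul (0.20, 0.0634) and Slc38a3 (0.13, 0.1749) did not, beside 6.60% of genes called higher.

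**Figure D3:**
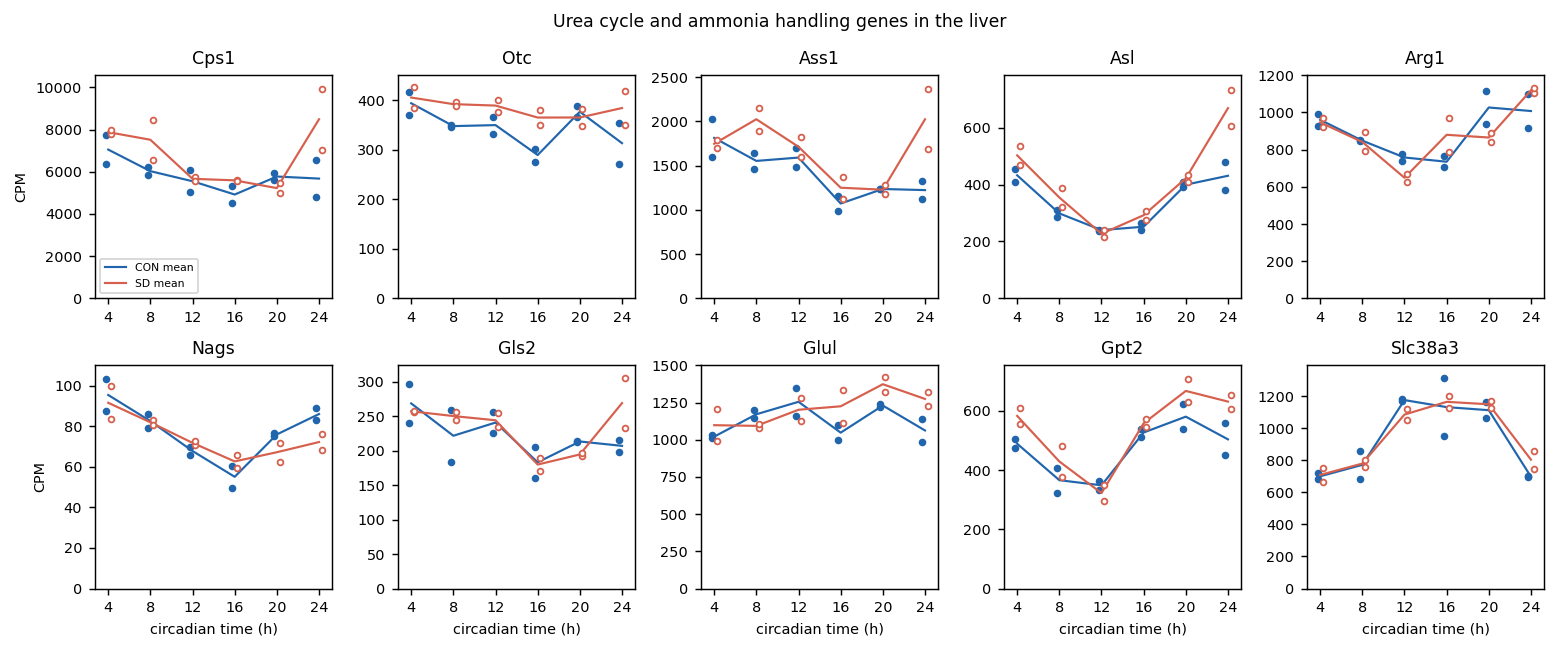
CPM of each of the 10 genes in liver against circadian time in h, with filled points for CON libraries, open points for SD libraries and lines through their means. SD lies above CON at CT24 for Cps1, Ass1 and Asl, and Asl and Nags show their lowest values between CT12 and CT16.

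In CON liver the cycle genes and the glutamine carrier were highest at different times. Of the 5 cycle enzymes and Nags, all but Arg1 had their highest CON mean at CT4, and Arg1 at CT20. The mean of Asl was 433 CPM at CT4 and 240 CPM at CT12, a 1.8-fold range, and that of Nags 95.4 CPM at CT4 and 55.1 CPM at CT16. Cps1 had 7051 CPM at CT4 and 4920 CPM at CT16. The product of Slc38a3 both imports and exports glutamine. Slc38a3 was highest at CT12 with 1176 CPM and lowest at CT24 with 698 CPM. Gpt2 was highest at CT20 with 581 CPM and lowest at CT12 with 349 CPM.

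By JTK_CYCLE, a rank test for a 24 h cosine with 12 libraries per group, none of the 10 genes passed in CON liver, beside 0.147% of all genes, and 4 had an unadjusted p under 0.05. Nags came closest (adjusted p = 0.0599, peak CT4). In SD liver 2 of 10 passed, beside 1.76% of all genes: Asl with a peak at CT24 (adjusted p = 0.0167) and Slc38a3 with a peak at CT16 (adjusted p = 0.0426). Slc38a3 was lost with TMM-scaled CPM (adjusted p = 0.2231) and in each of 12 runs that left out 1 library, and Asl was kept with TMM-scaled CPM (adjusted p = 0.0337) and in 4 of 12 of those runs.

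A cosine fitted to the counts in edgeR made more calls, 6 of the 10 genes in CON liver beside 8.87% of all genes and 6 in SD liver beside 11.0%. Its amplitude, from midline to peak on the log2 scale, was 0.59 for Asl in CON (peak CT 1.0, adjusted p = 5.7e-04) and 0.77 in SD (peak CT 1.0, adjusted p = 7.7e-05). Nags had 0.44 (peak CT 3.0, adjusted p = 0.0039) and 0.31 (peak CT 4.8, adjusted p = 0.0127), and Gpt2 0.39 (peak CT 22.4, adjusted p = 0.0155) and 0.50 (peak CT 23.2, adjusted p = 0.0030). Slc38a3 peaked at CT 15.8 in CON and CT 16.6 in SD, with amplitudes of 0.36 and 0.34. Glul, the ammonia scavenger, was nearly flat in CON with an amplitude of 0.02 (adjusted p = 0.9827). None of the 10 genes differed in rhythm between CON and SD (edgeR, adjusted p = 0.9997 for each, none with an unadjusted p under 0.05, beside 0% of all genes, and none by DESeq2, beside 0.0203%).

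Over the 24 liver libraries the other cycle genes followed Cps1 closely. As a description, Spearman's rho of log2 CPM with Cps1 was 0.87 for Ass1, 0.85 for Otc, 0.83 for Gls2, 0.77 for Nags, 0.71 for Asl and 0.70 for Arg1, and 0.40 for Gpt2, 0.33 for Glul and -0.32 for Slc38a3. Among 8310 genes with a mean of at least 10 CPM, Bhmt2 (0.93) and Aass (0.92) were among the most like Cps1. These points share libraries, scaling and the time of day.

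In kidney none of the 8 genes tested passed in the averaged comparison, beside 2.30% of 21528 genes, and 1 of them, Slc38a3, had an unadjusted p under 0.05. Ass1 had 1890 ± 216 CPM (1662 to 2259) in CON and 1827 ± 182 CPM (1541 to 2193) in SD, a log2 fold change of -0.06 ± 0.06 (SE, adjusted p = 0.6868). Asl had 194 ± 26.2 and 187 ± 26.6 CPM (-0.07 ± 0.05, adjusted p = 0.6072), and Glul, which serves the proximal tubule, 757 ± 160 and 702 ± 133 CPM (-0.12 ± 0.07, adjusted p = 0.4753). CON and SD overlapped over nearly their whole ranges in these 3 genes. Slc38a3, the tubule's glutamine carrier, had 27.4 to 55.8 CPM (median 37.0) in CON and 37.6 to 55.3 CPM (median 44.8) in SD (0.23 ± 0.07, adjusted p = 0.1087). DESeq2 called it (adjusted p = 0.0457), beside 3.25% of all genes. Both tested macrophage markers fell in kidney as well, Adgre1 by 0.42 and Cd5l by 1.85 on the log2 scale, with a summed list of 13.9 to 23.4 CPM in CON and 10.8 to 14.3 CPM in SD, and their part in these values was not tested.

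Otc and Nags were too low in kidney to be tested, with Otc at 0 in 8 of 12 CON libraries. Kidney Cps1 gave -0.47 ± 0.71 on the log2 scale with the CON CT20 library that stood apart and 0.54 without it (adjusted p = 0.6992), so its sign rested on that library. Arg1 gave -1.0 ± 0.56 with it (adjusted p = 0.4642) and -0.31 without it (adjusted p = 0.7979), and was not called either way.

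Gpt2 and Slc38a3 had their largest kidney fold changes at single times, although none passed after adjustment. Slc38a3 at CT4 had 33.7 and 27.4 CPM in CON and 44.1 and 55.3 CPM in SD, a log2 fold change of 0.70 ± 0.13 (adjusted p = 0.1538). Gpt2 at CT8 had 58.0 and 60.9 CPM in CON and 82.8 and 92.6 CPM in SD (0.50 ± 0.12, adjusted p = 0.1836), and at CT16 69.3 and 78.1 CPM in CON and 59.6 and 60.5 CPM in SD (-0.33). The libraries of CON and SD did not overlap at these times, and the sign of the Gpt2 difference was not the same at both. Over the 8 genes tested in kidney and the 6 times, 9 of 48 tests had an unadjusted p under 0.05, and the same count over all genes is not given here. Tested over all 6 times, Gpt2 had an adjusted p of 0.0744 and Slc38a3 one of 0.0801 in edgeR, beside 0.725% of genes called. These were the only 2 of the 8 genes with an unadjusted p under 0.05, and DESeq2 called both (adjusted p = 2.8e-04 and 1.1e-04), beside 3.22% of genes.

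**Figure D4:**
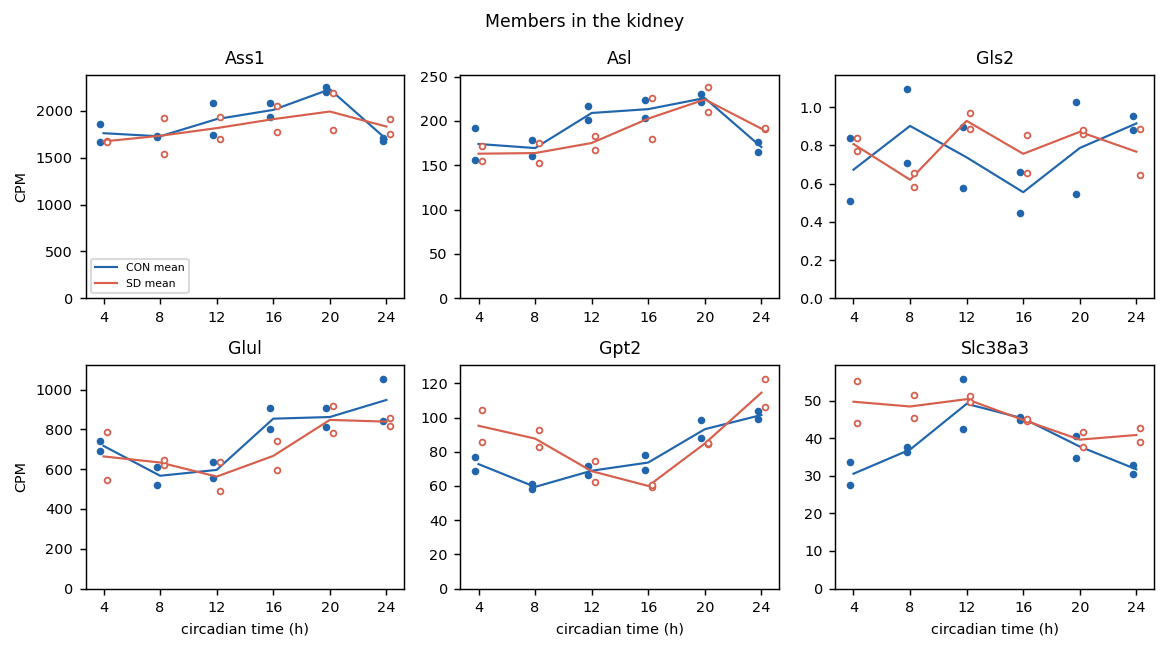
CPM in kidney against circadian time in h for Ass1, Asl, Gls2, Glul, Gpt2 and Slc38a3, with filled points for CON libraries, open points for SD libraries and lines through their means. Gpt2 is highest at CT24 in both groups and lies higher in SD at CT8, and Slc38a3 is lowest at CT4 in CON only.

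The fitted peaks of Gpt2 and Slc38a3 lay several hours apart in CON and SD. By the edgeR cosine, Gpt2 peaked at CT 21.9 in CON (amplitude 0.36 on the log2 scale, adjusted p = 0.0016) and at CT 2.0 in SD (0.43, adjusted p = 0.0064), and Slc38a3 at CT 14 in CON (0.33, adjusted p = 0.0053) and CT 8.6 in SD (0.17, adjusted p = 0.1489). This fit called 4 of the 8 genes in CON, beside 3.93% of all genes, and 1 in SD, beside 2.21%. In the test of the rhythm difference they were the only 2 with an unadjusted p under 0.05, but their adjusted p was 0.9991 in edgeR and 0.2254 in DESeq2, and neither was called, nor was any of all genes tested (0%). Glul peaked at CT 21.4 in CON (0.38, adjusted p = 0.0032) and CT 22.5 in SD (0.30, adjusted p = 0.0867). By JTK_CYCLE none of the 8 genes passed in CON, beside 0.158% of genes, or in SD, beside 0%, and 3 in each had an unadjusted p under 0.05. Over the 24 kidney libraries Spire1 (rho 0.88), Fndc3a (0.87) and Trabd (0.87) were most like Gpt2 among 9828 genes, and Glul had 0.65.

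None of the partner, nitrogen, transporter and regulator genes tested in kidney, forebrain or cerebellum passed in the averaged comparison by edgeR. In kidney 2 of 13, 6 of 21, 3 of 20 and 1 of 10 of them had an unadjusted p under 0.05, and DESeq2 called 1 nitrogen gene. In forebrain the numbers were 1 of 13, 4 of 17, 0 of 16 and 0 of 9, in cerebellum 1 of 10, 2 of 16, 0 of 15 and 0 of 9, and DESeq2 called none in either.

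Whether liver and kidney responded differently was tested directly. The SD effect was larger in liver than in kidney by 0.43 ± 0.12 on the log2 scale for Ass1 (SE, adjusted p = 0.0237), 0.42 ± 0.10 for Asl (adjusted p = 0.0088) and 0.35 ± 0.10 for Glul (adjusted p = 0.0253). These 3 of 10 genes stand beside 3.76% of 22870 genes with a larger effect in liver and 6.49% called in either direction. They were also the 3 genes with the highest RPKM in kidney. All 3 stayed called in each of 48 fits that left out 1 library. With library sizes alone, where 0.756% of genes had a larger effect in liver, Asl stayed (0.27, adjusted p = 0.0297) and Ass1 (0.27, adjusted p = 0.0588) and Glul (0.20, adjusted p = 0.1359) did not, and without CT24 again Asl alone stayed (0.38, adjusted p = 0.0194).

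For Gpt2 the liver effect minus the kidney effect was 0.20 (adjusted p = 0.2588) and for Slc38a3 it was -0.07 (adjusted p = 0.7381), and neither passed. The estimates for Cps1 (1.07), Otc (1.52) and Arg1 (1.36) were larger but did not pass and rest on a few kidney reads. Without the kidney CON CT20 library that stood apart they were -0.25, -0.99 and 0.41. Otc, too low to be tested in kidney alone, entered this fit through its liver counts, and its kidney CON level rests on 33 reads of that library. Leaving out the other library of that time brought Arg1 (adjusted p = 0.0178) and Otc (adjusted p = 0.0250) past the threshold, and these calls rest on the library that stood apart.

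In the brain, where the cycle is incomplete and glutamine synthetase takes the place of urea formation, Glul was the only member near its liver level. CON forebrain had 335 ± 26.2 RPKM of Glul against 340 ± 33.6 RPKM in liver, 228 ± 48.2 RPKM in kidney and 146 ± 26.0 RPKM in cerebellum. Forebrain and liver did not differ beyond their spread. Gls2 stood at 7.48 ± 0.753 RPKM in cerebellum and 4.71 ± 1.11 RPKM in forebrain, against 0.219 RPKM in kidney. Gpt2 and Slc38a3 lay between 5.92 and 9.79 RPKM in both brain tissues, Ass1 and Asl between 0.627 and 3.50 RPKM, and Cps1, Otc, Arg1 and Nags at or below 0.196 RPKM.

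SD did not move brain Glul past the test. In forebrain it ranged from 996 to 1250 CPM (median 1133) in CON and from 1067 to 1257 CPM (median 1138) in SD, with a log2 fold change of 0.05 ± 0.05 (SE, adjusted p = 0.8535), beside 0.0303% of 23078 genes called. In cerebellum it ranged from 308 to 608 CPM (median 505) in CON and from 391 to 825 CPM (median 544) in SD, with 0.18 ± 0.09 (adjusted p = 0.9070, unadjusted p under 0.05), beside 0% of 22218 genes. The groups overlapped in both tissues. DESeq2 did not call it in either tissue, beside 0.0737% of forebrain genes and 0.00450% of cerebellum genes. The lowest cerebellum value belonged to CON CT8 replicate 1, in which Slc38a3 was also the lowest of the CON libraries at 14.9 CPM, and without that library the fold change was 0.14.

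Cerebellum samples differed in what else they held. The astrocyte markers summed to between 2296 and 3021 CPM in CON and between 2438 and 3075 CPM in SD. The choroid plexus markers, in contrast, ran from 1.22 to 1822 CPM (median 6.53) in CON and from 1.83 to 2978 CPM (median 685) in SD. The part of this in the Glul values was not tested. By JTK_CYCLE Glul passed in none of the 4 groups of brain libraries. Over the 24 forebrain libraries Rassf2 (rho 0.84), Ezr (0.82) and Sft2d2 (0.80) were most like Glul among 10184 genes.

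**Figure D5:**
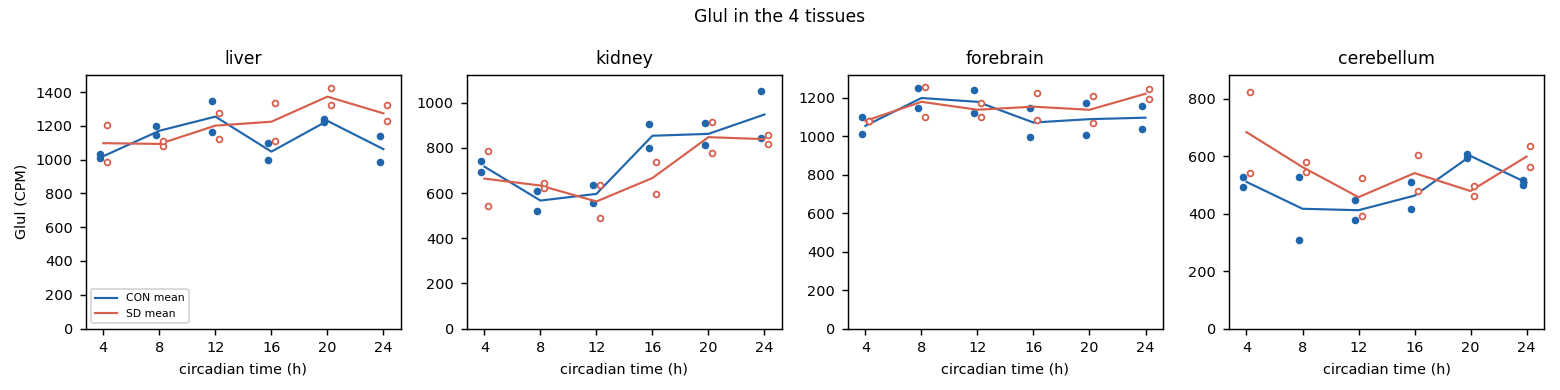
CPM of Glul in the 4 tissues against circadian time in h, with filled points for CON libraries, open points for SD libraries and lines through their means. Liver and forebrain lie at about the same height, kidney is highest at CT24 in CON, and cerebellum is lowest, with a CON library at 308 CPM at CT8.

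The genome positions of the genes (GRCm38, GENCODE M21) bear on how cleanly their reads could be counted. Cps1 lies at chr1:67123026-67231259, Otc at chrX:10252305-10321024, Ass1 at chr2:31470207-31520672 and Glul at chr1:153899944-153909723, all on the plus strand, with Gls2 (chr10:128194457-128210004), Nags (chr11:102145513-102149477) and Gpt2 (chr8:85492576-85527560). Asl (chr5:130011258-130029247), Arg1 (chr10:24915221-24927484) and Slc38a3 (chr9:107650634-107669530) lie on the minus strand. Nags overlaps the antisense gene Gm11586, Gls2 the gene Spryd4 and Glul the gene Teddm2, each on the opposite strand, and counting was by strand. The annotation used for counting is not known, and overlap with the 5248 numbered loci of the table was not searched. Gpt and Cebpb were at 0 CPM in all liver libraries, and why was not tested. Glul also holds the microRNA gene Mir8114 on its own strand.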

How the data were processed

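Total RNA from 96 libraries was depleted of ribosomal RNA and sequenced by the authors, who trimmed reads with Trim Galore 0.6.4, aligned them to GRCm38 with HISAT2 2.1.0, kept mapping quality 60 with Samtools 1.9 and counted read pairs by strand with featureCounts 1.6.4. They deposited raw counts per gene, not normalized, and the annotation release is not given in the sources used here. The deposited count table was used with identifiers matched to GENCODE M21, and CPM was each count over its library total. Groups follow the library titles. No library equalled another.

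SD was compared with CON per tissue by edgeR 4.0.16 (quasi-likelihood test, TMM factors, filterByExpr), averaged over time with time as a factor, jointly and singly over the 6 times, and as a cosine by treatment. Liver and kidney were compared in CON and by a tissue by treatment term. P-values were adjusted by the Benjamini-Hochberg method over all genes tested, with a threshold of 0.05. Rhythms in CPM were tested by JTK_CYCLE (24 h, 6 phases, exact null), as the study's methods did on another unit. Scripts were tested on simulated data. Alternatives were library sizes alone, DESeq2 1.42.0, relative log expression factors, no filter on low counts, TMM-scaled CPM, the edgeR cosine, a replicate block and leaving out each library. Chosen after seeing the data were the hepatocyte covariate, leaving out CT24, and relative log expression factors in the liver and kidney fits.

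The 10 genes, the pathway lists and the cell type markers were chosen with earlier results of these data known. Named from each list are up to 3 genes per direction with the largest called log2 fold change, and the 3 genes most like Cps1 in liver, Glul in forebrain and Gpt2 in kidney by Spearman's rho of log2 CPM. Some genes that this rule names are not reported here.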

Additional observations from a re-analysis of the deposited data

Results flagged for a closer look

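The effect of SD differed between liver and kidney in a direct test for 3 genes. The liver effect exceeded the kidney effect by 0.43 on the log2 scale for Ass1, by 0.42 for Asl and by 0.35 for Glul. In liver the 3 genes rose by 0.37, 0.36 and 0.24, and in kidney they stood at -0.06, -0.07 and -0.12, none of which passed. The hepatocyte markers moved in the same liver libraries, from a median sum of 76907 CPM in CON to 86341 CPM in SD, and their part in the organ difference was not tested.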

How the results depend on the processing

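Of 721 values for single genes under all alternatives, 630 kept their direction and side of the threshold, 29 lost and 51 gained a call, and 11 changed sign. In liver averaged over time, 7 called genes became 3 with library sizes alone and 0 with the hepatocyte covariate, where Arg1 was -0.02 and -0.05, Nags -0.04 and -0.03, and Gls2 -0.00 with the covariate. In kidney 0 became 1 with DESeq2 and 1 with no filter, Cps1 was 0.08 with a replicate block and 0.54 without kidney CON CT20 replicate 1, and Gls2 was -0.02 without kidney CON CT12 replicate 2. At any time, 1 liver gene became 5 with DESeq2, 7 with no filter, 0 with the block and 0 without CT24, and 0 kidney genes became 2 with DESeq2 and 5 with no filter. The kidney rhythm difference went from 0 to 2 with no filter. The organ difference went from 3 to 1 with library sizes alone, 6 with no filter and 1 without CT24, with Cps1 at -0.25 and Otc at -0.99 without kidney CON CT20 replicate 1, and liver against kidney Ass1 was -0.43 with library sizes alone. With the edgeR cosine in place of JTK_CYCLE, liver went from 0 to 6 in CON and from 2 to 6 in SD, and kidney from 0 to 4 in CON and from 0 to 1 in SD. Liver SD went to 1 with TMM-scaled CPM and to 1 with no filter. Causes were not tested. The share of all genes called with no filter is not given here, so the counts under that setting are not read as particular to these genes.

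Leaving out each library in turn gave 6 to 8 called genes in liver, 0 to 0 in kidney, 0 to 5 at any time in liver and 0 to 1 in kidney, 9 to 9 between organs, 3 to 5 for the organ difference, 0 to 1 by JTK_CYCLE in SD liver, and 0 for the other rhythm results. Glul ranged from 0.03 to 0.07 in forebrain and from 0.14 to 0.22 in cerebellum. Kidney Cps1 ranged from -0.72 to 0.54, kidney Gls2 from -0.02 to 0.12, and the organ difference from -0.25 to 1.31 for Cps1 and from -0.99 to 1.98 for Otc. The 5 arose without kidney CON CT20 replicate 2, through Arg1 and Otc, whose kidney values rest on replicate 1 of that time.

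CON and SD libraries with the same replicate number deviated together (correlation over 0.1) in 1 of 6 pairs in cerebellum, 2 in forebrain, 3 in kidney and 1 in liver, so the numbers were not read as pairs. With this pairing as a block, 6 liver genes were called (Slc38a3 was lost at an adjusted p of 0.0699). For the organ difference the block joined liver and kidney libraries of the same treatment, time and replicate number instead, and 3 genes stayed called. Such liver and kidney libraries deviated together (correlation over 0.1) in 3 of 12 pairs, the highest at 0.32. The main organ fits took liver and kidney libraries as independent.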

Other observations

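None of the 7 genes tested in forebrain passed, beside 0.0303% of all genes called, and values are given here for the 3 with an unadjusted p under 0.05. Gpt2 had a higher SD mean at 6 of 6 times, with a log2 fold change of 0.11 ± 0.03 (SE, adjusted p = 0.6821 in edgeR). Ass1 and Asl stood at -0.27 ± 0.12 and -0.20 ± 0.08, each with an adjusted p of 0.7720 and with a higher SD mean at 1 of 6 times. The 5 cycle enzymes held 0.0018% of forebrain counts in CON and 0.0016% in SD, and 1.01% ± 0.208 of liver counts in SD (0.777% to 1.46% over the 12 libraries).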
